A study of Mus musculus with 4 samples.

Results

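Chemokines are small secreted proteins that draw leukocytes along a gradient, and neutrophils both follow them and make them. The genes described here are 10 symbols, chosen with earlier results of these data known. They are the CXC ligands Cxcl1, Cxcl2, Cxcl3, Cxcl10 and Cxcl16, the CC ligands Ccl2, Ccl3, Ccl4 and Ccl6, and Ccrl2. All 10 were found, each in 1 row, among the 16566 genes of the deposited tables. Ccrl2 is not a ligand: it encodes an atypical receptor that binds chemerin at the cell surface, so the set holds 9 ligand genes and 1 receptor gene.

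CXC and CC ligands are told apart by whether a residue separates their first cysteines. Cxcl1, Cxcl2 and Cxcl3 act on the receptor CXCR2 and call in more neutrophils, Cxcl10 is induced by interferons and acts on CXCR3 of T cells, and Cxcl16 is made as a membrane protein that binds CXCR6. Ccl2 acts on CCR2 of monocytes, Ccl3 and Ccl4 encode macrophage inflammatory proteins that attract several kinds of leukocyte, and Ccl6 is a CC ligand of rodents. Transcription of many of these genes is driven by NF-kB, Cxcl10 is also driven by interferon regulatory factors, and several of their mRNAs carry AU-rich elements through which tristetraprolin speeds their decay.

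RNA was sequenced from neutrophils of C57BL/6 mouse bone marrow, isolated at a purity given as above 95%, and cultured for 1 h in medium that held 20% serum (FBS). The 2 vehicle libraries came from cells that received 80% glucose with 20% PEG300 over 1 h, and the 2 ruxolitinib libraries from cells that received ruxolitinib, an inhibitor of the kinases JAK1 and JAK2, over 1 h. The labels state the dose as 0.1 µM in the treatment field and 1 µM in the protocol and titles, so it is uncertain. No mouse age, sex or pooling is stated, and whether the libraries of a group are separate cultures is not stated either, so p-values here measure a spread that may be technical.

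The libraries held 14235511 to 15419579 estimated counts. The neutrophil label fitted its markers: 12 of 12 were tested, and their summed level was 83694 to 104650 CPM (counts scaled to the TMM-adjusted library size) in the 4 libraries, led by Ngp and S100a9. The closest pair was vehicle replicate 1 with ruxolitinib replicate 1, with a biological coefficient of variation of 3.73%. Vehicle replicate 2 stood apart from vehicle replicate 1 (31.9%), and ruxolitinib replicate 2 from ruxolitinib replicate 1 (17.7%). Fitted values of each chemokine gene tested are therefore also given with a library left out, beside the fit or as a range at the end. Fitted values of the other gene lists come from all 4 libraries only. In such bulk samples, fewer cells of a type and less RNA per cell cannot be told apart.

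Cxcl1, Cxcl2 and Cxcl3 are neighbours on chromosome 5, and their promoters are shown because they share a letter motif while their transcripts did not move together. RefSeq windows on GRCm38.p6, from 250 bases before to 50 after each start, were matched for 7 of the 10 genes, and Cxcl16, Ccl2 and Ccl4 were not matched. The windows lie at chr5:90890995-90891294 on the plus strand for Cxcl1, chr5:90903649-90903948 (plus) for Cxcl2, chr5:90785851-90786150 (plus) for Cxcl3 and chr5:92348840-92349139 (minus) for Cxcl10. They are printed 5′ to 3′ on the strand of the gene, with matches to the motifs below in capitals.
Cxcl1: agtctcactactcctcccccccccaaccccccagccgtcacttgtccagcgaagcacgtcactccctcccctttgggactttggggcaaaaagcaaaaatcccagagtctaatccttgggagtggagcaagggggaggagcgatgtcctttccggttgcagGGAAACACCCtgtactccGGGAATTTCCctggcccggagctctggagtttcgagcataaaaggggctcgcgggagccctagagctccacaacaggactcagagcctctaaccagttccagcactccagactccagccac
Cxcl2: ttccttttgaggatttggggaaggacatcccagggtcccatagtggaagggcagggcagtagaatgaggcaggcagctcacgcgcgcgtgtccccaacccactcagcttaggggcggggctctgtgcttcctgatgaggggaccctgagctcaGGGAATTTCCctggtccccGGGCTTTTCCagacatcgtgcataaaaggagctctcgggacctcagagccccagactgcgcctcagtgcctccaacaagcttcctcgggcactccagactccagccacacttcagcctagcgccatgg
Cxcl3: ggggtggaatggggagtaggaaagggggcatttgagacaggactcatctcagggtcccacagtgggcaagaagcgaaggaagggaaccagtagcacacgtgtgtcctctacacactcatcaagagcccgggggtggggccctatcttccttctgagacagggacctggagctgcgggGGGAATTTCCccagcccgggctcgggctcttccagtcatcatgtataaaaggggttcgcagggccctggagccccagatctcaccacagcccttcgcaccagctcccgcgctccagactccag
Cxcl10: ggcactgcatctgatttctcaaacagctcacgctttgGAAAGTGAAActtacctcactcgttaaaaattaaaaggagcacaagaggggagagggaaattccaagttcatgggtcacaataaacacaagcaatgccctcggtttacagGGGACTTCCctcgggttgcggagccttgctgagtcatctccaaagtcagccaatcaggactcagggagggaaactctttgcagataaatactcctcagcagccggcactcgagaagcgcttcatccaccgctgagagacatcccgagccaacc

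Letter motifs were searched on both strands: GGGANTTCC and a longer run of GGG, any 2 bases and TTTCC for NF-kB type sites, GAAA, any 2 bases and GAAA for interferon regulatory factor (IRF) type sites, and TTCNNNGAA for STAT type sites. The longer NF-kB type motif was found 2 times in the window of Cxcl1, 2 times in that of Cxcl2 and 1 time in that of Cxcl3, and 1.63% of all 32851 promoter windows of that length hold it. In each of these 3 genes 1 of the matches reads GGGAATTTCC, starting 71 bases upstream of the start of Cxcl1, 97 upstream of Cxcl2 and 73 upstream of Cxcl3. That exact run, an instance of the longer motif and searched after the windows were seen, is in 29 windows (0.0883%). The window of Cxcl10 holds GGGANTTCC 103 bases upstream of its start (1.68% of windows hold it) and the IRF type motif 213 bases upstream (3.44%). TTCNNNGAA, held by 8.3% of windows, was in 0 of the 9 windows of these genes. The windows of Ccl3, Ccl6 and Ccrl2 hold none of these letters. A match describes letters and is not a measured site.

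**Figure D1:**
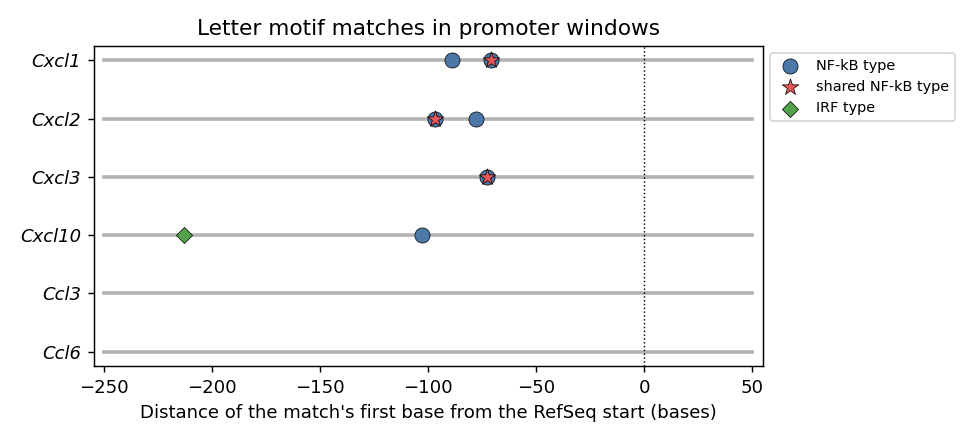
Positions of the letter motif matches in the promoter windows of 6 of the genes: the horizontal axis gives the distance in bases from the RefSeq start, each grey line is a window, and symbols mark the first base of a match. Cxcl1, Cxcl2 and Cxcl3 each have the shared NF-kB type run (star) at 71, 97 and 73 bases upstream, and Cxcl10 has an NF-kB type match at 103 and an IRF type match at 213.

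The 3′ UTRs of the same neighbours are shown for their AU-rich letters, a search chosen after values were seen. Tristetraprolin binds the core TATTTAT. Counting overlapping matches on the transcript strand of the GENCODE M21 transcript, Cxcl2 has 7 in a UTR of 734 bases and Cxcl1 has 6 in one of 592 bases. Cxcl3 has 2 in 645 bases. Of the UTRs within 25% of the same length, 0.103% hold as many as Cxcl2, 0.0739% as many as Cxcl1 and 3.73% as many as Cxcl3. Ccl3, Ccl4 and Ccrl2 have 1 each, and the other 4 genes (Cxcl10, Cxcl16, Ccl2 and Ccl6) have 0. The densest 30 bases lie at chr5:90905327-90905356 for Cxcl2, chr5:90892603-90892632 for Cxcl1 and chr5:90787855-90787884 for Cxcl3, all on the plus strand of GRCm38, with each ATTTA in capitals.
Cxcl2: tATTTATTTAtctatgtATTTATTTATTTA
Cxcl1: agggtcctATTTATTTAtgtATTTATTTAt
Cxcl3: aactatacaagattatcagttgttATTTAt

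Levels of different genes were compared per length, in the deposited TPM. Ccl6 and Cxcl2 led, with Ccl6 at 984 and 1290 TPM with vehicle and 957 and 1040 TPM with ruxolitinib. Cxcl2 was at 455 and 1380 TPM with vehicle and 436 and 368 TPM with ruxolitinib. Cxcl2 therefore passed Ccl6 in vehicle replicate 2 alone, and its range also overlaps that of Ccl3 (316 to 537 TPM). Ccrl2 followed at 147 to 238 TPM and Ccl4 at 93.7 to 105 TPM, with no overlap with the genes beside them in the order. Cxcl10 lay at 19.8 to 52.5 TPM, above Cxcl3 at 9.91 to 17.7 TPM. The ranges of the lowest genes overlap their neighbours: Cxcl1 lay at 4.56 to 18.7 TPM, Cxcl16 at 0.59 to 5.73 TPM and Ccl2 at 0.6 to 1.47 TPM.

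The 10 genes together took 0.217% of all TPM in vehicle replicate 1, 0.352% in vehicle replicate 2, 0.211% in ruxolitinib replicate 1 and 0.213% in ruxolitinib replicate 2. In CPM they summed to 1365 and 2156 in the vehicle libraries, and 1348 and 1774 in the ruxolitinib libraries. Ruxolitinib replicate 2 was thus level with the first replicates on TPM but above them in CPM. Its TPM over FPKM also differed, with a median of 1.46 against 1.71 to 1.73 elsewhere. Cxcl2 made up 39.2% of the summed TPM of the 10 genes in vehicle replicate 2 and 17.3% to 21% in the other libraries. Ccl6 held 36.5% in that library and 45.3% to 48.7% in the others. Ccrl2 held 11.2% in ruxolitinib replicate 2 and 4.74% to 8.02% elsewhere.

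**Figure D2:**
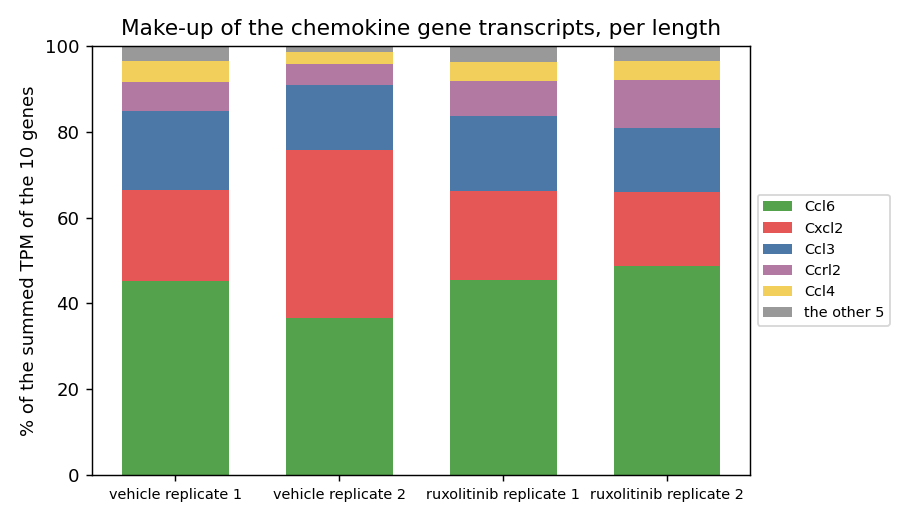
Share of the summed TPM of the 10 genes taken by each, in percent, with 1 bar per library and the 5 lowest genes pooled in grey. Cxcl2 takes 39.2% in vehicle replicate 2, against 21% in vehicle replicate 1, 20.7% in ruxolitinib replicate 1 and 17.3% in ruxolitinib replicate 2.

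Ruxolitinib was set against vehicle to see which transcripts respond to 1 h of JAK inhibition. None of the 9 chemokine genes that passed the filter on low counts differed at an adjusted p below 0.05 by edgeR's quasi-likelihood test with Benjamini-Hochberg adjustment over 11611 genes. The test called 0 genes, 0% of those tested, in either direction, and DESeq2 and limma-voom called 0 of the 9 as well. At an unadjusted p below 0.05, 1 of the 9 was lower by edgeR (Cxcl2), where 1.38% of all genes were lower and 1.94% (225 genes) passed in either direction. DESeq2 gave 2 of the 9 (Cxcl2 and Cxcl16) among 232 genes, and limma-voom 1 (Cxcl16) among 188 genes. The fitted log2 fold changes ran from -1.03 for Cxcl2 to 1.30 for Cxcl16, with 4 above 0 and 5 below. Their median was -0.01, beside a median of 0.00 in size over all genes tested. For any 1 gene, the smallest two-sided p that exact permutation of 2 and 2 libraries allows is 0.333.

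In CPM, the 2 libraries of a group lay wholly apart from the other group for 3 genes. Ruxolitinib was higher for Cxcl10 and Cxcl16, where 14.5% of all genes tested had ruxolitinib wholly higher, and lower for Ccl3, where 12.8% had it wholly lower. In either direction this held for 27.3% of all genes. On the deposited TPM, 3 of the 10 genes lay wholly higher (Cxcl10, Cxcl16 and Ccrl2), where 6.35% of all genes tested did, and 3 wholly lower (Cxcl2, Ccl3 and Ccl4), where 20.0% did. TPM over FPKM had a median of 1.46 in ruxolitinib replicate 2 and of 1.71 to 1.73 elsewhere. In that library Ccl4 had its highest CPM (37.5) yet lay below both vehicle libraries on TPM (96.6). The part of this ratio in the change from CPM to TPM was not tested.

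**Figure D3:**
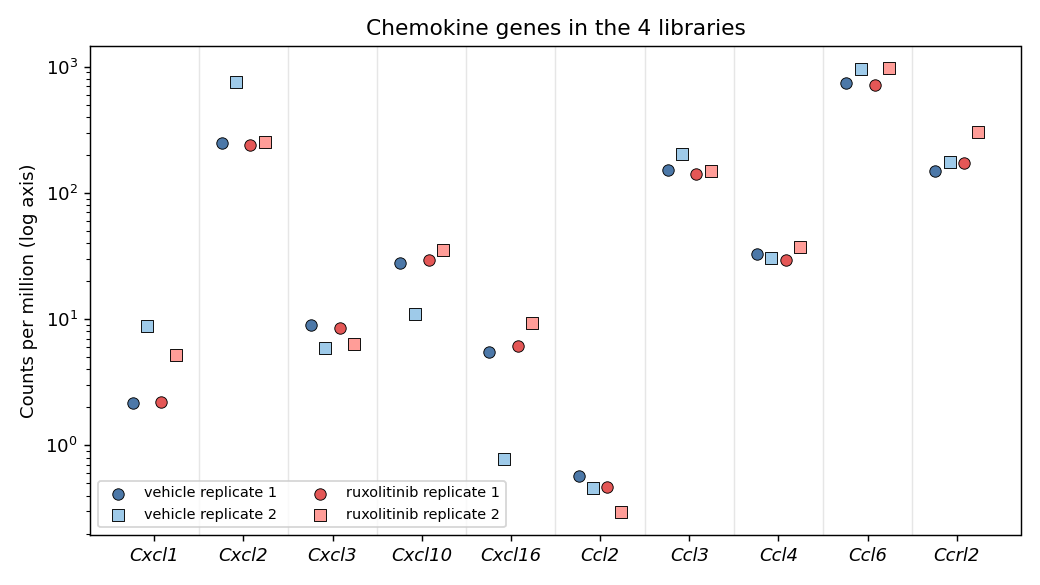
Level of each gene in each of the 4 libraries in CPM on a log axis: circles are replicate 1 and squares replicate 2, blue is vehicle and red is ruxolitinib. The pale blue square of vehicle replicate 2 stands highest for Cxcl1 (8.87 CPM) and Cxcl2 (754 CPM) and lowest for Cxcl10 (11 CPM) and Cxcl16 (0.783 CPM).

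Among the ligands of CXCR2, Cxcl2 (MIP-2, chromosome 5, 90903899 to 90905938) measured 249 and 754 CPM in the vehicle libraries, and 239 and 252 CPM in the ruxolitinib libraries. Vehicle replicate 2 was high, the other 3 libraries lay close together, and the groups overlapped. The log2 fold change was -1.03 ± 0.43 (SE, n = 2 per group; edgeR adjusted p = 0.975; 95% interval -1.98 to -0.08). Vehicle replicate 2 lay above vehicle replicate 1 by a log2 of 1.60, with a counting interval of 1.55 to 1.65. Ruxolitinib replicate 2 differed from vehicle replicate 1 by 0.02 (-0.05 to 0.08). The fitted value rested on 1 vehicle library: it was -0.03 without vehicle replicate 2 and -1.62 without vehicle replicate 1. Each of these fits holds a single vehicle library and so no spread between vehicle libraries.

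Cxcl1 (KC, chromosome 5, 90891245 to 90893121) measured 2.16 and 8.87 CPM in the vehicle libraries, and 2.19 and 5.15 CPM in the ruxolitinib libraries, from 33 to 136 counts per library. Both second replicates were high and both first replicates low, so the groups overlapped. Ruxolitinib replicate 2 exceeded ruxolitinib replicate 1 by a log2 of 1.23 (counting interval 0.61 to 1.87). Its log2 fold change was fitted as -0.59 ± 0.62 (SE, n = 2 per group; edgeR adjusted p = 0.975). It turned to 0.74 without vehicle replicate 2 and was -1.28 without vehicle replicate 1, each from a fit with a single vehicle library. Without ruxolitinib replicate 2 it was -1.33, and without ruxolitinib replicate 1 it was -0.1.

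Cxcl3 (chromosome 5, 90786101 to 90788093) went the other way from its neighbours in vehicle replicate 2. It measured 9.02 and 5.94 CPM in the vehicle libraries, and 8.50 and 6.32 CPM in the ruxolitinib libraries, from 86 to 142 counts. The second replicate was the lower one in each group, and the groups overlapped. Its fitted log2 fold change was -0.01 (95% interval -0.82 to 0.80). Within a library, where scaling cancels, the ratio of Cxcl2 to Cxcl3 in TPM was 25.7 in vehicle replicate 1, 118 in vehicle replicate 2, 26.2 in ruxolitinib replicate 1 and 37.1 in ruxolitinib replicate 2. Of 1060 stretches of 50 bases in the Cxcl2 transcript 61 occur also in Cxcl3, so reads there could be split between these genes.

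Cxcl10 (IP-10, chromosome 5, 92346638 to 92348889), the interferon-induced ligand of CXCR3, measured 27.8 and 11.0 CPM in the vehicle libraries, and 29.4 and 35.1 CPM in the ruxolitinib libraries. Vehicle replicate 2 was low, and ruxolitinib lay wholly above vehicle, but by little over vehicle replicate 1: ruxolitinib replicate 1 exceeded it by a log2 of 0.08 (counting interval -0.11 to 0.28). Fitted over all libraries the log2 fold change came to 0.73 ± 0.40 (SE, n = 2 per group; edgeR adjusted p = 0.975; 95% interval -0.15 to 1.61). It was 0.21 without vehicle replicate 2 and 1.55 without vehicle replicate 1, each from a fit with a single vehicle library. The ratio of Cxcl2 to Cxcl10 in TPM was 69.7 in vehicle replicate 2 and 7.32 to 9.14 in the other libraries. The gene Art3 overlaps Cxcl10, and no source states whether counting used strand.

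Cxcl16 (chromosome 11, 70454389 to 70459984), the membrane-bound ligand of CXCR6, had the widest range of the 10 genes, 11.9-fold in CPM. It measured 5.46 and 0.783 CPM in the vehicle libraries, and 6.11 and 9.34 CPM in the ruxolitinib libraries, from 86, 12, 92 and 127 counts. Vehicle replicate 2 was low and ruxolitinib lay wholly above vehicle. Ruxolitinib replicate 1 exceeded vehicle replicate 1 by a log2 of 0.16 (counting interval -0.28 to 0.60) and ruxolitinib replicate 2 did so by 0.77 (0.37 to 1.19). The fitted log2 fold change was 1.30 ± 0.65 (SE, n = 2 per group; edgeR adjusted p = 0.975). It was 0.49 without vehicle replicate 2 and 3.29 without vehicle replicate 1, each from a fit with a single vehicle library. Without ruxolitinib replicate 2 it was 0.96. Zmynd15 overlaps this gene, so its reads are uncertain in the same way.

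**Figure D4:**
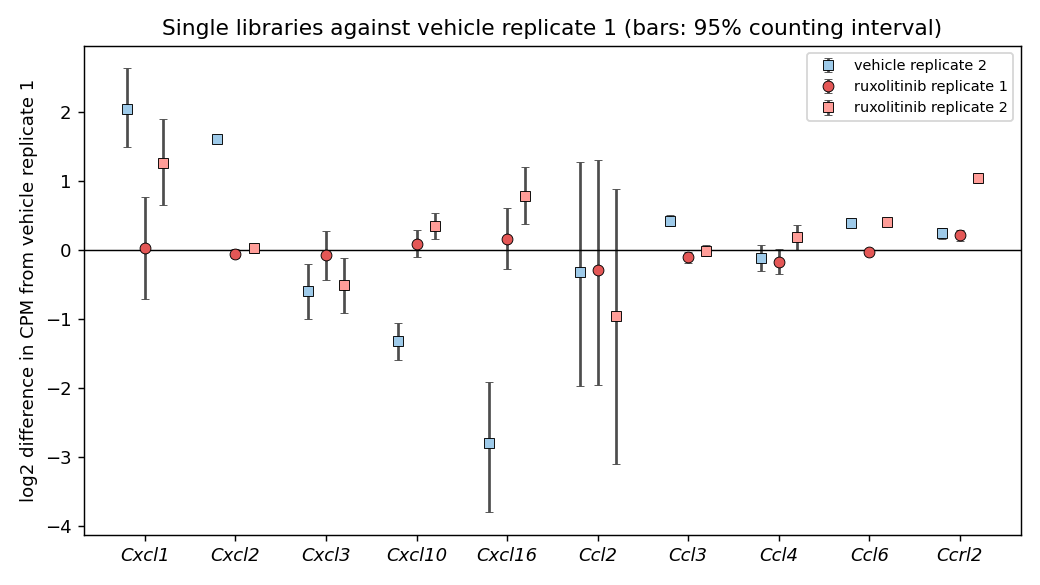
Difference of each library from vehicle replicate 1 in log2 CPM, with bars for the 95% counting interval, which covers counting error only. Vehicle replicate 2 departs in opposite directions, at 2.04 for Cxcl1 and 1.60 for Cxcl2 against -1.33 for Cxcl10 and -2.80 for Cxcl16, while ruxolitinib replicate 1 stays between -0.30 and 0.21.

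Vehicle replicate 2 was past 2-fold from vehicle replicate 1 for 4 of the 10 genes, 2 higher (Cxcl1, Cxcl2) and 2 lower (Cxcl10, Cxcl16), where 14.6% of all genes tested were past it. For ruxolitinib replicate 1 this count was 0 (1.25% of all genes), and for ruxolitinib replicate 2 it was 2, Cxcl1 and Ccrl2, both higher (4.62% of all genes). These differences compare libraries and not treatments.

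Ccl6 (chromosome 11, 83587886 to 83593087) measured 737 and 965 CPM in the vehicle libraries, and 719 and 972 CPM in the ruxolitinib libraries. The second replicate was the higher one in each group by nearly the same amount, a log2 of 0.39 with vehicle (counting interval 0.35 to 0.42) and 0.43 with ruxolitinib (0.40 to 0.47). Its log2 fold change was fitted as -0.01 ± 0.28 (SE, n = 2 per group; 95% interval -0.63 to 0.62).

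Ccl3 (MIP-1 alpha, chromosome 11, 83647843 to 83649378) measured 152 and 203 CPM in the vehicle libraries, and 141 and 150 CPM in the ruxolitinib libraries. Vehicle replicate 2 was highest and the groups did not overlap, though ruxolitinib replicate 2 lay only 0.02 below vehicle replicate 1 on the log2 scale, with a counting interval of -0.10 to 0.07. The fitted log2 fold change was -0.29 ± 0.28 (SE, n = 2 per group; edgeR adjusted p = 0.975), and it was -0.07 without vehicle replicate 2. Ccl4 (MIP-1 beta, chromosome 11, 83648624 to 83664683) measured 33.0 and 30.3 CPM in the vehicle libraries, and 29.2 and 37.5 CPM in the ruxolitinib libraries, with overlapping groups and a fitted log2 fold change of 0.07 (95% interval -0.56 to 0.71). The sign of this value turned on the deposited TPM. The ratio of Ccl3 to Ccl4 in TPM was 5.49 in vehicle replicate 2 and 3.27 to 3.95 in the others. The annotated spans of both genes overlap, so their reads may not be fully apart.

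Ccl2 (MCP-1, chromosome 11, 82035577 to 82037452), the monocyte attractant, was barely detected, with 9 and 7 counts with vehicle and 7 and 4 with ruxolitinib. It was under the filter, and with every gene of at least 1 count kept its log2 fold change was -0.41 (95% interval -2.07 to 1.24). No difference was detectable at this depth.

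Ccrl2 (chromosome 9, 111054834 to 111057518), the chemerin-binding receptor, measured 149 and 176 CPM in the vehicle libraries, and 172 and 306 CPM in the ruxolitinib libraries. Ruxolitinib replicate 2 was high, and ruxolitinib replicate 1 lay 0.03 below vehicle replicate 2 on the log2 scale, so the groups overlapped. Fitted over all libraries the log2 fold change came to 0.56 ± 0.33 (SE, n = 2 per group; edgeR adjusted p = 0.975; 95% interval -0.16 to 1.27). It was 0.08 without ruxolitinib replicate 2 and 0.91 without ruxolitinib replicate 1. Summed markers of other cells also stood apart in ruxolitinib replicate 2, as did the neutrophil sum (104650 CPM against 83694 to 90988 CPM). Of the neutrophil markers, Retnlg was higher there (7960 CPM against 4440 to 4900 CPM) and Mpo was lower (72.7 CPM against 154 to 166 CPM). The 7 erythroid markers summed to 16819 CPM there and to 6647 to 6893 CPM in the others, and the 8 B lineage markers to 1951 CPM against 1111 to 1396 CPM. The median log2 difference of the B lineage markers from vehicle replicate 1 was 0.57 in vehicle replicate 2 and 0.77 in ruxolitinib replicate 2. Among them, Pax5 was highest in vehicle replicate 2 (256 CPM, against 221 CPM in ruxolitinib replicate 2). The 10 eosinophil, basophil and mast cell markers summed to 329 CPM in ruxolitinib replicate 2 against 777 to 1086 CPM elsewhere. The eosinophil granule genes Prg2 (208 CPM against 489 to 681 CPM) and Epx (41.2 CPM against 188 to 297 CPM) made up most of that difference. The basophil markers Mcpt8 (13.4 CPM against 8.28 to 11.7 CPM) and Prss34 (26.6 CPM against 17.9 to 25.2 CPM) were highest there. No marker in these lists was at 0 in every library, and their part in the result was not tested.

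**Figure D5:**
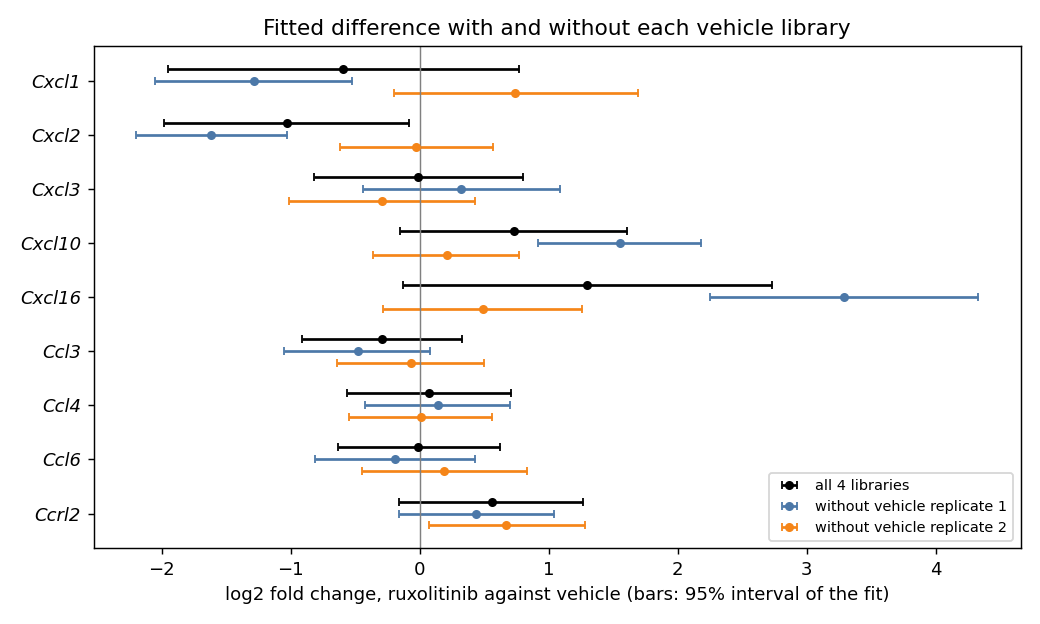
Fitted log2 fold change of ruxolitinib against vehicle for the 9 genes tested, with bars for the 95% interval, from all 4 libraries (black), without vehicle replicate 1 (blue) and without vehicle replicate 2 (orange). Cxcl16 moves from 1.30 to 3.29 and 0.49, Cxcl2 from -1.03 to -1.62 and -0.03, and Cxcl1 changes sign to 0.74 without vehicle replicate 2.

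Without vehicle replicate 1, with the spread of the single vehicle library taken from the ruxolitinib libraries, 4 of the 9 genes passed by edgeR: Cxcl10 and Cxcl16 higher, where 7.73% of all genes were called higher, and Cxcl1 and Cxcl2 lower, where 7.24% were called lower. Without vehicle replicate 2, 0 of the 9 genes and 0% of all genes passed, with 151 genes at an unadjusted p below 0.05, Ccrl2 among them. Without ruxolitinib replicate 1 it was 0 of the 9, with 0.0345% of all genes called higher and 0.0517% lower, and without ruxolitinib replicate 2 it was 0 of the 9, with 0% higher and 0.0345% lower. The fits without a vehicle library share the ruxolitinib libraries.

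Of 10 monocyte and macrophage markers 9 were tested, and they summed to 1213 and 1215 CPM in the vehicle libraries, and 1185 and 1420 CPM in the ruxolitinib libraries, so the sum did not set vehicle replicate 2 apart. Among the markers named by the rule, Ccr2, the monocyte receptor for Ccl2, was highest in that library, and measured 7.11 and 17.6 CPM with vehicle, against 5.98 and 8.46 CPM with ruxolitinib. None of the monocyte and macrophage markers was at 0 in every library, and Ms4a7 stayed under 1 CPM. Of dendritic cell markers 9 of 10 were listed, and they summed to 180 CPM in vehicle replicate 2 and to 288 to 428 CPM in the others. Ccr7 and Itgax, which other leukocytes also express, made up most of that sum. Clec9a, a marker of cross-presenting dendritic cells, went the other way, with 1.21 and 3.39 CPM in the vehicle libraries, and 0.997 and 0.368 CPM in the ruxolitinib libraries. The sums were 24.8 to 36.8 CPM for T and natural killer markers, 9.63 to 16.4 CPM for platelet markers and 112 to 154 CPM for stroma and endothelium markers. The part of these cells in the values of Cxcl1, Cxcl2, Cxcl10 and Cxcl16 was not tested.

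The rest of the chemokine system was read from lists written with earlier results of these data known. Of 29 other ligand genes 21 were in the tables and 2 passed the filter, Ccl9 and Ccl5, with 0 called by edgeR. Ccl9, a CC ligand of rodents near Ccl6, measured 26.9 and 27.5 CPM in the vehicle libraries, and 25.3 and 33.6 CPM in the ruxolitinib libraries. Ccl5, a T cell attractant, measured 3.18 and 3.39 CPM, against 2.66 and 6.62 CPM with ruxolitinib. Ccl20 was at 0 in all libraries. The 19 other listed ligand genes, with Ccl20, the interferon-induced Cxcl9, the stromal Cxcl12 and the platelet gene Pf4 among them, stayed under 1 CPM in all libraries.

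Of 23 receptor genes 16 were tested and 0 were called, 9 with a fitted value above 0 and 7 below. Cxcr2, which binds the products of Cxcl1, Cxcl2 and Cxcl3, measured 526 and 1040 CPM in the vehicle libraries, and 542 and 463 CPM in the ruxolitinib libraries. It was high in vehicle replicate 2, as Cxcl1 and Cxcl2 were. Cxcr4, the receptor that retains neutrophils in marrow, measured 783 and 674 CPM, against 787 and 854 CPM with ruxolitinib. Ccr7, a receptor for lymph node homing, measured 192 and 120 CPM, against 192 and 354 CPM with ruxolitinib.

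Among 12 NF-kB subunit and inhibitor genes, all tested, 0 were called and 12 had a fitted value above 0, beside 5736 of the 11611 genes tested. Their median log2 fold change was 0.55. Against vehicle replicate 1, their median log2 difference was -0.69 in vehicle replicate 2, 0.05 in ruxolitinib replicate 1 and 0.24 in ruxolitinib replicate 2. Relb, a subunit gene, measured 199 and 28.8 CPM with vehicle, against 197 and 194 CPM with ruxolitinib, so neither ruxolitinib library lay above vehicle replicate 1, and the same held for Nfkb1 and Bcl3. Nfkbiz, the nuclear regulator IkB-zeta, measured 701 and 589 CPM in the vehicle libraries, and 818 and 1470 CPM in the ruxolitinib libraries. Rel, a subunit gene, measured 168 and 98.1 CPM, against 195 and 259 CPM with ruxolitinib. Nfkbia, the feedback inhibitor IkB-alpha, was high in both second replicates, at 637 and 1250 CPM in the vehicle libraries, and 649 and 1250 CPM in the ruxolitinib libraries. Cxcl1 was likewise high in both second replicates, and Cxcl10 and Cxcl16 were low in vehicle replicate 2 like Rel. The list went both ways in vehicle replicate 2: Nfkbia, Nfkbid and Tnfaip3 lay above vehicle replicate 1, and the other listed genes below it. A link between the NF-kB genes and the chemokine genes was not tested.

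Among 10 genes for factors of AU-rich mRNA decay, 0 were called, 4 had a fitted value above 0 and 6 below, with a median log2 fold change of -0.10. Zfp36, which encodes tristetraprolin, measured 786 and 2450 CPM in the vehicle libraries, and 709 and 744 CPM in the ruxolitinib libraries. It was high in vehicle replicate 2 beside Cxcl2, whose 3′ UTR holds 7 TATTTAT cores. Cxcl1, with 6 cores, was also high in ruxolitinib replicate 2 (5.15 CPM), where Zfp36 was not. A link between Zfp36 and these genes was not tested. Zfp36l2 measured 262 and 421 CPM, against 266 and 201 CPM with ruxolitinib, and Zfp36l1 measured 275 and 366 CPM, against 258 and 288 CPM.

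The genes whose pattern over the 4 libraries was most like that of Cxcl16 and Cxcl1, the 2 members with the widest log2 CPM range, were sought among 5709 genes of at least median abundance by the root mean square difference of centred log2 CPM. For Cxcl16 they were Bcl2a1b (0.20), Dusp16 (0.22) and Gramd3 (0.22). Bcl2a1b, a survival gene with near-identical paralogs that can share reads, measured 40.4 and 9.07 CPM in the vehicle libraries, and 47.1 and 67.9 CPM in the ruxolitinib libraries. Dusp16, a MAP kinase phosphatase gene, measured 202 and 24.8 CPM, against 218 and 242 CPM with ruxolitinib. For Cxcl1 they were Ppp1r15a (0.10), Ralgps2 (0.16) and Lrch1 (0.20). Ppp1r15a, a stress-induced phosphatase subunit gene, measured 65.4 and 256 CPM in the vehicle libraries, and 61.7 and 126 CPM in the ruxolitinib libraries, with both second replicates high like Cxcl1. With 4 libraries this likeness is a description.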

How the data were processed

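GRCm38.p6 and the tools Bowtie2, RSEM and DESeq2 are named, without versions, per the submitters' processing notes. No source used here names the annotation. Per the file headers, the authors deposited a read count per gene, whose values (91% whole, within 1e-06) make it an estimated count, and TPM and FPKM values scaled by length and depth. TPM over FPKM had a median of 1.46 for ruxolitinib replicate 2, and of 1.71 to 1.73 elsewhere. FPKM served only for this ratio and to derive gene length.

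Groups came from the treatment labels and replicate numbers from the titles. Counts were rounded, kept by filterByExpr (a count of about 10, 15 in total), scaled by TMM and fitted in edgeR 4.0.16 (R 4.3.3) with group as the only term. The common coefficient of variation was 25.7%. The standard error is the fold change over the square root of F. Counting intervals between libraries are exact binomial (95%) and cover counting error only. The fit was checked on simulated data. Alternatives used RLE, DESeq2 1.42.0, limma 3.58.1 (voom), 2 filters, each library left out, a replicate block, TPM and, added later, the removal of a length trend. Members, lists and tests were chosen with earlier results of these data known. In other lists the 2 smallest p-values and the 2 highest means were candidates for naming. Further genes (Cxcl9, Cxcl12, Pf4, Ms4a7, Ccl20, Relb, Nfkb1, Nfkbid, Tnfaip3, Bcl3, Mpo, Pax5, Mcpt8, Prss34) were chosen after their values were seen. Protein sequences were not used here. Identifiers of 16466 of 16566 genes matched the RefSeq table. Some items are not reported here.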

Additional observations from a re-analysis of the deposited data

How the results depend on the processing

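With each library left out in turn, edgeR called 0 to 898 genes higher and 0 to 841 lower, and 0 to 2 of the chemokine genes higher and 0 to 2 lower. Without ruxolitinib replicate 1 the calls were 4 higher and 6 lower, and without ruxolitinib replicate 2 they were 0 and 4. With the replicate number as a replicate block, 9 genes were higher and 7 lower, none of them a chemokine gene. At an unadjusted p below 0.05 by edgeR, that fit held 3 chemokine genes (Cxcl2, Cxcl16 and Cxcl10) among 515 of 11611 genes. The deviations of same-numbered libraries correlated at 0.04. With 2 libraries per group both pairs give this same value by construction, so it is 1 observation and cannot settle pairing. The labels state no pairing, so the numbers are not taken as pairs. RLE, DESeq2, limma-voom and both filters left 0 calls.

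Of the fitted values, 4 changed sign when a library was left out. Their leave-one-out ranges were -1.33 to 0.74 for Cxcl1, -0.29 to 0.32 for Cxcl3, -0.12 to 0.24 for Ccl4 and -0.25 to 0.19 for Ccl6. Cxcl3 was 0.00 with the block and 0.01 with limma-voom. Ccl4 was -0.09 on log2(TPM + 1) and -0.19 with the length trend removed. On TPM, 3 chemokine genes lay wholly lower with ruxolitinib (20.0% of all genes) and 3 wholly higher (6.35%). The length trend and the TPM count were chosen after seeing the data. The ranges of Cxcl2 (-1.62 to -0.03), Cxcl10 (0.21 to 1.55), Cxcl16 (0.49 to 3.29), Ccl3 (-0.48 to -0.07) and Ccrl2 (0.08 to 0.91) kept their sign. The cause of these changes was not tested. Depth limits Ccl2, at 4 to 9 counts per library.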
